A study of Mus musculus with 89 samples.

Results

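The genes described here are 36 genes of microglia and of the immune cells at the borders of the brain, chosen by name: surface receptors and transcription factors of microglia, the chains of complement C1q, Fc and Toll-like receptor components, lysosomal genes, chemokines, and markers of border-associated macrophages. A gene was counted as measured when a probe set, the group of array probes summarised into 1 value, carried its symbol alone. This held for 34 of the 36, out of 22206 probe sets on the array, of which 19572 carried 1 symbol; Cd68 and Spp1 have no probe set named in the table used here and are not analysed. Each of the 34 genes was measured by 1 probe set, and no probe set was left out for low signal.

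The data were log2 signals from Clariom S high throughput arrays for 89 mouse embryos, taken at embryonic day 18.5, of which each gave 1 forebrain sample and 1 array. Ts65Dn mice carry a small extra chromosome made of the distal part of mouse chromosome Mmu16, where many orthologues of human chromosome Hsa21 genes lie, and of a proximal part of Mmu17, which holds none. Ts66Yah mice carry the Mmu16 part without the Mmu17 part. Each trisomic group was compared with euploid embryos of its own colony, which is the comparison the series describes. The first colony gave 18 EupTs65Dn embryos, 9 female and 9 male, and 23 Ts65Dn embryos, 13 female and 10 male. The second gave 24 EupTs66Yah embryos, 11 female and 13 male, and 24 Ts66Yah embryos, 13 female and 11 male. Each colony contributed 6 litters, named after their dams, and every litter held both genotypes. All mice were kept untreated on a mixed B6 and C3H background. In the first colony the trisomy came from Ts65Dn dams mated with B6EiC3Sn.BLiAF1/J males. The second descended from 3 Ts66Yah founder females of B6C3B background, whose C3B part is a C3H/HeH line with the BALB/c allele of Pde6b, and was expanded by in vitro fertilization with sperm of 4 Ts66Yah males.

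The colonies lay at different signal levels, with array means from 5.26 to 5.33 in the Ts65Dn colony and, for 47 of 48 arrays, from 6.35 to 6.41 in the Ts66Yah colony, so no level was compared between colonies. The remaining array, WT18-N9-Brain (EupTs66Yah replicate 16), had a mean of 6.05 and a standard deviation across probe sets of 1.13, against 2.23 to 2.39 in the other EupTs66Yah arrays. It is called the low-spread array below, and the Ts66Yah difference of each member is given with and without it. The litter test leaves it out, as do the correlations and the values of other genes unless stated. Of 69 triplicated genes used to check the labels, 49 passed the test as higher in Ts65Dn and 52 in Ts66Yah without the low-spread array; 4 arrays lay nearer to the level of the other genotype, and in 17 arrays the Y-linked genes went against the sex label. Forebrain neuron and progenitor markers read high, with median list means of 9.47 in EupTs65Dn and 9.48 in Ts65Dn. In the second colony these were 10.21 in EupTs66Yah without the low-spread array and 10.28 in Ts66Yah. Single genes of the list lay above this, such as the radial glia gene Fabp7, with mean log2 signals of 12.23 in Ts65Dn and 12.14 in EupTs65Dn. The synaptic gene Snap25 had means of 11.06 in Ts66Yah and 10.75 in EupTs66Yah without the low-spread array. Most members were dim: in each colony 12 of 34 had a mean signal at or above the median over all probe sets. Siglech, Ms4a7 and Gpnmb lay under the lower quartile in the Ts66Yah colony, and no member did so in the Ts65Dn colony.

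Microglia are the resident macrophages of the brain. They arise from yolk sac progenitors, enter the brain early in development, depend on the receptor Csf1r, and clear dying cells and, later, synapses, for which complement C1q is one tag. Related macrophages sit in the meninges, the perivascular spaces and the choroid plexus and are known by the scavenger and uptake receptors Mrc1 and Lyve1. In a bulk sample such as a whole forebrain, a lower signal can mean fewer cells of a type or less RNA in each cell, and these cannot be told apart.

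Spi1 encodes PU.1, the factor that directs macrophage identity and binds purine-rich sites with a GGAA core. To show what such a site looks like beside the genes measured, the promoters of 4 members, from microglia and border macrophages, are printed here. The lines give the 250 bases before the RefSeq start on the strand of the gene (build GRCm38.p6). Capitals mark AGGAAGT or its reverse complement ACTTCCT. The P2ry12 window is chr3:59262986-59263235 on the minus strand and the C1qb window chr4:136886201-136886450 on the minus strand. Mrc1 was read at chr2:14229164-14229413 and Pf4 at chr5:90772185-90772434, both on the plus strand. All 4 windows lie upstream of the annotated first exon.
P2ry12: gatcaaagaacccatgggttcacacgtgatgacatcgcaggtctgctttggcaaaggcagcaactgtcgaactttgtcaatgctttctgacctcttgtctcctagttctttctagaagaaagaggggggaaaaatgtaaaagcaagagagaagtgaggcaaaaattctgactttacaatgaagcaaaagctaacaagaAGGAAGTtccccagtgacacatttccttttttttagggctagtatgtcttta
C1qb: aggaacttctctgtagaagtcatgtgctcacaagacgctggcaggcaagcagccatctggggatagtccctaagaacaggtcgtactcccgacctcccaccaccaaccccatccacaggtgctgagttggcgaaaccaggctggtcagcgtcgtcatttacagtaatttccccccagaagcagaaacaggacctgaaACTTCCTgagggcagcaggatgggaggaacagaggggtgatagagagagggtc
Mrc1: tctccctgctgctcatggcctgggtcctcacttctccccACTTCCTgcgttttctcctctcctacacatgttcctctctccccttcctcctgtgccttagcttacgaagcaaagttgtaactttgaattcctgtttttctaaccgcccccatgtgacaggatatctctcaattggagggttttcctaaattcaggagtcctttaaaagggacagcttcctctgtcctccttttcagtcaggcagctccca
Pf4: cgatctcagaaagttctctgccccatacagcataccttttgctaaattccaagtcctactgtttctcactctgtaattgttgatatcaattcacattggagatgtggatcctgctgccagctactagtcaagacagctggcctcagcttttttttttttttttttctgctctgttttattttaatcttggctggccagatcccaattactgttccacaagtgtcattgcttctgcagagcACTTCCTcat

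The motif began 52 bases before the start in P2ry12 (on the printed strand), and 53 bases before it in C1qb, 211 in Mrc1 and 10 in Pf4 (on the other strand). RefSeq promoters, here 250 bases before to 50 after the start, were held in the table for 25 of the 36 members, as 31 windows. AGGAAGT, searched on both strands, occurred in 11 of the 31 windows (35.5%), those of C1qb, C1qc, Ctss, F13a1, Fcrls, Mrc1, P2ry12, Pf4, Ptprc and Spp1. It occurred in 3072 of all 32851 windows (9.35%). The longer GAGGAAGT, every match of which holds an AGGAAGT, was in 5 of 31 windows (16.1%, against 3.20% of all), and GAGGAA, which also lies inside GAGGAAGT, was in 21 of 31 (67.7%, against 28.3%). A match of letters is a description of the window and says nothing of whether PU.1 sits there, and a window without a match says only that these letters are not in it.

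In Ts65Dn none of the microglia and immune genes was called at an adjusted p under 0.1 (limma, adjusted by Benjamini and Hochberg's method across the whole array, the 10% rate of the series). The count was 0 of 34, where 0.491% of all probe sets passed, 0.459% as higher and 0.0315% as lower. At an unadjusted p under 0.05 the count was also 0 of 34, where 1285 probe sets (5.79%) lay under that value, and the unpaired t-test of the series called 0 as well. The mean was higher in Ts65Dn for 18 of 34 members. Their median log2 difference was 0.0065, beside a median of -0.0021 over all probe sets, and the single differences ran from -0.23 for Ccl3 to 0.27 for Irf8. The 95% interval of a member reached a median of 0.25 to each side, without adjustment for the number of probe sets. A call at an adjusted p under 0.1 needed a larger difference than such an interval. The count of 0 therefore does not exclude differences of that size with these numbers of embryos.

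In Ts66Yah 1 member rose, Ly96, when the low-spread array was left out; with all arrays it was not called in the fit without covariates, and was called with array spread as a covariate (0.60, adjusted p = 0.0832). With all arrays 0 of 34 members were called by limma and 0 by the t-test of the series, where 0.171% of all probe sets were called (0.162% higher, 0.00901% lower), and 4 members (11.8%) lay under an unadjusted p of 0.05, beside 2271 probe sets (10.2%). Without the low-spread array 1 of 34 was called, where 0.932% of all probe sets were called (0.757% higher, 0.176% lower), and 4 members lay under an unadjusted p of 0.05 (11.8%, beside 2689 probe sets or 12.1%). These shares stand near the background of all probe sets in both fits. Of the 34 members, 21 had a higher mean in Ts66Yah with all arrays, with a median difference of 0.063 (0.043 over all probe sets), and 22 without the low-spread array, with a median of 0.061 (0.0044 over all probe sets). The latter count was 22 after quantile normalization and 18 after centring each array on its median, with medians of 0.046 and 0.017. Among all probe sets called without the low-spread array, 168 were higher and 39 lower in Ts66Yah as deposited, 107 and 24 after quantile normalization, and 98 and 113 after centring.

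**Figure D1:**
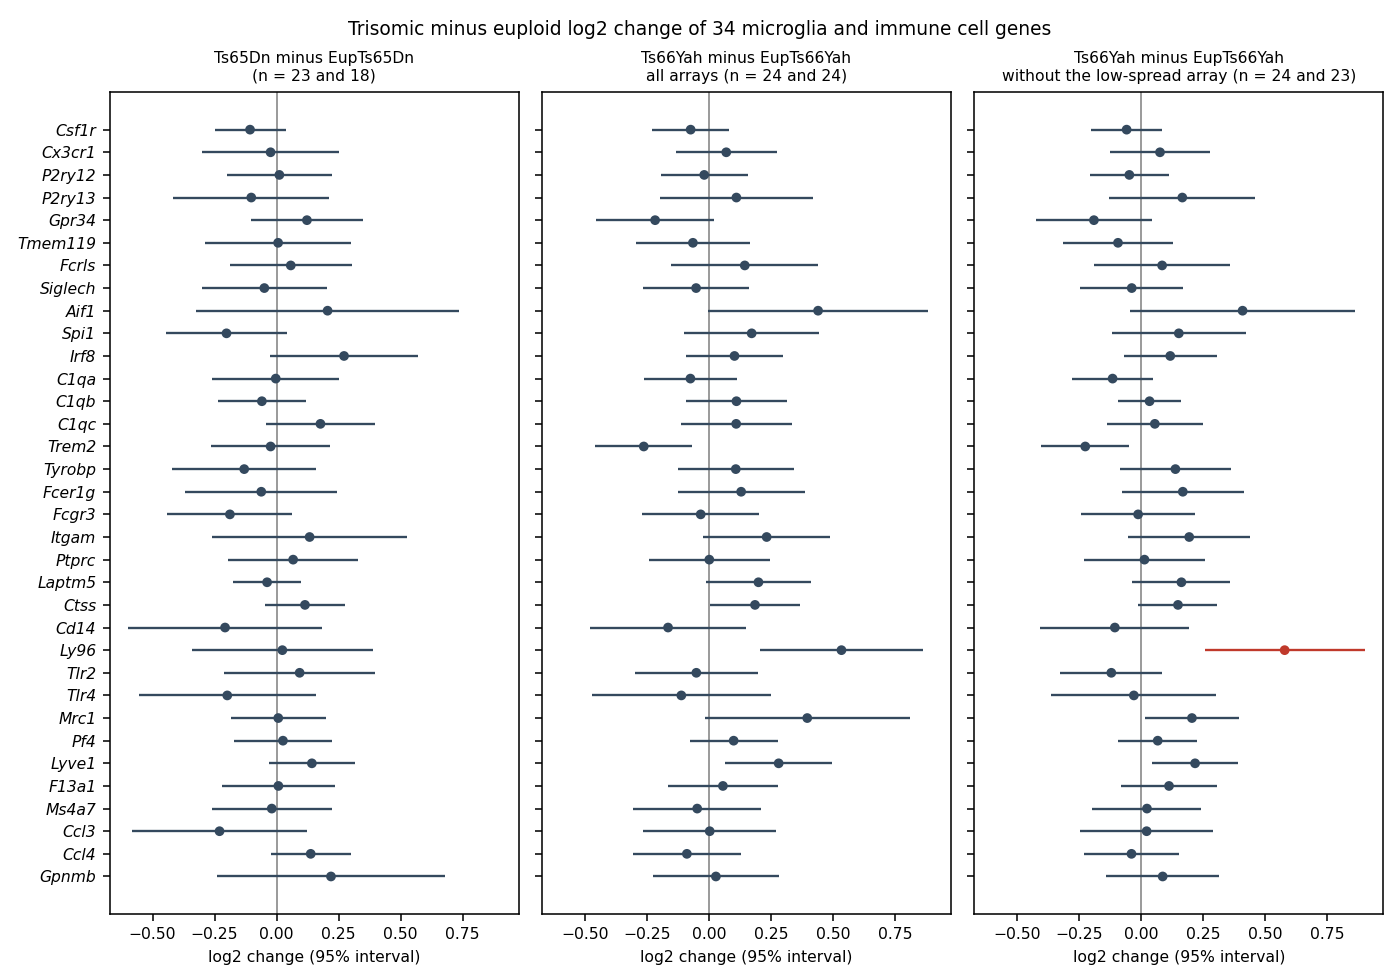
Log2 difference of trisomic against euploid forebrain for each of the 34 measured genes, ordered by role, with the 95% interval of the limma fit; the panels show Ts65Dn (left), Ts66Yah with all arrays (middle) and Ts66Yah without the low-spread array (right), and red marks an adjusted p under 0.1. Most intervals span 0, and the 1 red point is Ly96 in the right panel, at 0.58.

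The receptors and markers of resident microglia did not pass the test in either trisomy: 0 of 9 in Ts65Dn, with 5 of 9 means higher and a median difference of 0.0062, and 0 of 9 in Ts66Yah, with 4 of 9 higher and a median of -0.019 with all arrays and -0.038 without the low-spread array. The sign of that last median was not stable to scaling, at 0.007 after quantile normalization and -0.082 after centring. Csf1r, the receptor on which microglial survival rests, had a lowest, median and highest log2 signal of 5.48, 6.17 and 6.51 in EupTs65Dn and of 5.70, 6.08 and 6.44 in Ts65Dn. In the second colony it ran 6.61, 7.26 and 7.50 in EupTs66Yah without the low-spread array and 6.61, 7.13 and 7.74 in Ts66Yah. The groups overlapped almost fully, with log2 differences for Csf1r of -0.11 (SE 0.071, adjusted p = 0.926) in Ts65Dn and of -0.059 (SE 0.071, adjusted p = 0.779) in Ts66Yah without that array and -0.074 (adjusted p = 0.646) with it.

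P2ry12, the ADP receptor that steers microglial processes towards injury, ran from 5.36 over a median of 5.96 to 6.39 in EupTs65Dn and from 5.42 over 5.92 to 6.51 in Ts65Dn. It ran from 6.68 over 7.25 to 7.58 in EupTs66Yah without the low-spread array and from 6.64 over 7.20 to 7.78 in Ts66Yah. Its differences were 0.011 (SE 0.10, adjusted p = 0.999) and -0.048 (SE 0.079, adjusted p = 0.845; -0.019 with the low-spread array), and no group stood apart. Cx3cr1, the receptor for the neuronal chemokine fractalkine, had medians of 4.40 in EupTs65Dn and 4.37 in Ts65Dn, within 3.61 to 5.05 and 3.55 to 5.11. In the Ts66Yah colony the Cx3cr1 medians were 5.92 (range 5.18 to 6.44) in EupTs66Yah without the low-spread array and 5.96 (5.06 to 6.65) in Ts66Yah, and its differences were -0.024 (SE 0.14, adjusted p = 0.999) in Ts65Dn and 0.076 (SE 0.10, adjusted p = 0.80) in Ts66Yah, or 0.070 with the low-spread array.

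Tmem119, a membrane protein that marks maturing microglia, ran from 3.81 over a median of 4.93 to 5.62 in EupTs65Dn and from 3.89 over 4.95 to 6.12 in Ts65Dn, a difference of 0.0062 (SE 0.15, adjusted p = 0.999). In EupTs66Yah without the low-spread array it ran from 5.24 over 6.05 to 6.81 and in Ts66Yah from 5.54 over 5.95 to 6.76, a difference of -0.094 (SE 0.11, adjusted p = 0.773), or -0.064 with that array. Its groups overlapped throughout.

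Aif1, which encodes the cytoskeletal protein Iba1 used to stain microglia, was the most variable of the homeostatic genes. Its log2 signal ran from 3.66 over a median of 4.84 to 5.64 in EupTs65Dn and from 2.52 over 5.35 to 6.10 in Ts65Dn, with a standard deviation of 1.00 in Ts65Dn, the widest of the 34 members in that group. In EupTs66Yah without the low-spread array it ran from 2.50 over 6.09 to 7.21 and in Ts66Yah from 4.08 over 6.55 to 7.18, with standard deviations of 0.89 and 0.71. The medians were higher in the trisomic groups, but single embryos of every group reached far down. The differences were 0.21 in Ts65Dn (SE 0.26, adjusted p = 0.978, 16 of 23 embryos above the euploid median) and 0.41 in Ts66Yah without the low-spread array (SE 0.23, adjusted p = 0.471, 17 of 24 above), or 0.44 with it (adjusted p = 0.491), and neither passed. The other homeostatic members were Fcrls, P2ry13, Gpr34 and Siglech. Their differences ran from -0.10 to 0.12 in Ts65Dn and from -0.19 to 0.17 in Ts66Yah without the low-spread array, the latter from Gpr34, a lysophospholipid receptor, to P2ry13, the sister receptor of P2ry12. With that array they were -0.22 for Gpr34, -0.051 for Siglech, 0.11 for P2ry13 and 0.14 for Fcrls.

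The transcription factors were Spi1 and Irf8, partners on macrophage enhancers. Spi1 ran from 4.99 over a median of 5.77 to 6.44 in EupTs65Dn and from 4.92 over 5.56 to 6.63 in Ts65Dn, and from 5.32 over 6.77 to 7.30 in EupTs66Yah without the low-spread array and from 5.998 over 6.77 to 7.73 in Ts66Yah. Its difference was -0.20 (SE 0.12, adjusted p = 0.919, 7 of 23 above the euploid median) in Ts65Dn and 0.15 (SE 0.14, adjusted p = 0.685, 12 of 24 above) in Ts66Yah, or 0.17 with the low-spread array. Irf8, the interferon regulatory factor needed for microglial development, ran from 2.58 over 3.64 to 4.21 in EupTs65Dn and from 2.94 over 3.94 to 4.73 in Ts65Dn. The Ts65Dn embryos reached higher for Irf8, but the ranges overlapped: its difference of 0.27 (SE 0.15, 95% interval -0.026 to 0.57, adjusted p = 0.891) had the smallest p of any member in that comparison. In Ts66Yah without the low-spread array Irf8 differed by 0.12 (adjusted p = 0.643), and with it by 0.10.

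The 3 chains of C1q, which assemble into the first component of the classical complement pathway and are made in the brain mainly by microglia, were not called in either trisomy. C1qa ran from 4.27 over a median of 5.16 to 5.96 in EupTs65Dn and from 4.54 over 5.22 to 6.02 in Ts65Dn, and from 5.51 over 6.06 to 6.61 in EupTs66Yah without the low-spread array and from 5.35 over 5.99 to 6.33 in Ts66Yah. C1qb ran from 5.29 over 5.66 to 6.30 and from 5.04 over 5.69 to 6.11 in the first colony, and from 6.59 over 6.99 to 7.33 and from 6.64 over 7.03 to 7.56 in the second, euploid first. C1qc ran from 3.21 over 3.98 to 4.60 and from 3.50 over 4.19 to 4.79, and from 4.33 over 5.63 to 6.21 and from 5.01 over 5.65 to 6.18, in the same order. The trisomic and euploid ranges overlapped in each case; for C1qc in the Ts66Yah colony the euploid range reached lower. The Ts65Dn differences were -0.0032 for C1qa (SE 0.13, adjusted p = 0.999), -0.059 for C1qb (SE 0.089, adjusted p = 0.983) and 0.18 for C1qc (SE 0.11, adjusted p = 0.924). The Ts66Yah differences without the low-spread array were -0.12 for C1qa (SE 0.081, adjusted p = 0.590), 0.034 for C1qb (SE 0.064, adjusted p = 0.870) and 0.055 for C1qc (SE 0.097, adjusted p = 0.856). With that array they were -0.074, 0.11 and 0.11. The low-spread array was the lowest of its group for all 3 chains, at 5.09, 5.13 and 4.25, and with it the standard deviation of C1qb in EupTs66Yah was 0.42 in place of 0.18.

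Trem2, the lipid-sensing receptor of microglia, had the smallest p of the members with a lower mean in Ts66Yah, and did not pass. Its signal ran from 4.01 over a median of 5.07 to 5.51 in EupTs65Dn and from 4.24 over 4.96 to 5.69 in Ts65Dn. In EupTs66Yah without the low-spread array it ran from 5.78 over 6.14 to 6.57 and in Ts66Yah from 5.15 over 5.83 to 6.82, and 7 of 24 Ts66Yah embryos lay above the euploid median. The lower part of the Ts66Yah embryos thus lay under the whole euploid range, while others lay above it. The difference was -0.23 (SE 0.088, 95% interval -0.40 to -0.048, unadjusted p = 0.0136, adjusted p = 0.280 in limma), with adjusted p-values from 0.160 to 0.642 over the other settings, and -0.26 (SE 0.098, adjusted p = 0.382) with the low-spread array, whose 7.04 was the highest of its group. In Ts65Dn the difference was -0.024 (SE 0.12, adjusted p = 0.999). The trisomic litter mean of Trem2 was the higher one in 1 of 6 litters in both colonies, so this tally did not set them apart.

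Tyrobp, the ITAM adaptor through which Trem2 signals, ran from 3.22 over a median of 4.36 to 5.07 in EupTs65Dn and from 2.98 over 4.11 to 4.98 in Ts65Dn, and from 4.61 over 5.48 to 6.27 in EupTs66Yah without the low-spread array and from 4.72 over 5.53 to 6.23 in Ts66Yah. It differed by -0.13 (SE 0.14, adjusted p = 0.975) in Ts65Dn and by 0.14 (SE 0.11, adjusted p = 0.650) in Ts66Yah, or 0.11 with the low-spread array, so receptor and adaptor had means on opposite sides in Ts66Yah, neither of which passed. Fcer1g, the common Fc receptor gamma chain, and Fcgr3, a low-affinity IgG receptor, differed by -0.062 and -0.19 in Ts65Dn and by 0.17 and -0.012 in Ts66Yah without the low-spread array (0.13 and -0.033 with it). All 4 genes of this group had a lower mean in Ts65Dn, with a median of -0.096, and 0 of 4 passed.

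The leukocyte genes were Ptprc, which encodes CD45, Itgam, the alpha chain of complement receptor Mac-1, and Laptm5, a lysosomal membrane protein of blood cells. Their differences in Ts66Yah without the low-spread array were 0.013, 0.19 and 0.16, and for Laptm5 21 of 24 Ts66Yah embryos lay above the euploid median (SE 0.098, adjusted p = 0.519). With that array they were 0.0017, 0.23 and 0.20. In Ts65Dn they were 0.067, 0.13 and -0.038, and none of these passed. Ctss, the lysosomal protease cathepsin S, which is abundant in microglia, ran from 5.27 over a median of 5.62 to 6.16 in EupTs65Dn and from 5.26 over 5.76 to 6.20 in Ts65Dn. It ran from 6.13 over 6.67 to 7.32 in EupTs66Yah without the low-spread array, where that array read 5.83, and from 6.49 over 6.85 to 7.63 in Ts66Yah. The upper parts of the trisomic ranges lay a little above the euploid ones, with 18 of 23 Ts65Dn and 18 of 24 Ts66Yah embryos above the euploid median. The Ctss differences of 0.11 (SE 0.081, adjusted p = 0.927) and 0.15 (SE 0.079, adjusted p = 0.454), or 0.19 (SE 0.091, adjusted p = 0.480) with the low-spread array, did not pass.

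Ly96 encodes MD-2, the small protein that binds bacterial lipopolysaccharide together with TLR4. It ran from 4.11 over a median of 5.41 to 6.48 in EupTs66Yah without the low-spread array and from 4.70 over 6.18 to 6.94 in Ts66Yah. Most Ts66Yah embryos lay in the upper part of the euploid range or above it, 21 of 24 above the euploid median, and the groups overlapped. Ly96 rose by 0.58 on the log2 scale (SE 0.16, 95% interval 0.26 to 0.90, 1.49-fold, unadjusted p = 0.000732, adjusted p = 0.0917 in limma). With the low-spread array, whose 6.51 was the highest of its group, the difference was 0.53 (SE 0.16, adjusted p = 0.254) and was not called. In Ts65Dn Ly96 ran from 3.66 over 4.70 to 5.57, against 3.36 over 4.77 to 5.71 in EupTs65Dn. Here the groups lay level, with a difference of 0.023 (SE 0.18, adjusted p = 0.999).

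The Ly96 call lay close to the threshold. Over 21 other settings without the low-spread array the log2 difference stayed between 0.42 and 0.64, with adjusted p-values from 0.0373 to 0.394, and 15 of the 21 ended the call. The litter as a block gave 0.45 (adjusted p = 0.230), and array spread as a covariate also gave an adjusted p of 0.230. Leaving out the EupTs66Yah arrays that were narrower than every Ts66Yah array, 6 with the low-spread array counted, gave 0.394. Leaving out litter WT12, WT13, WT15, WT18 or WT19 gave adjusted p-values for Ly96 of 0.240, 0.198, 0.249, 0.196 and 0.106; without WT11 it was 0.0991. Within litters, the trisomic mean of Ly96 minus the euploid mean was 0.036 in WT11, with 1 euploid embryo, 0.38 in WT12, 0.76 in WT13, 0.61 in WT15, 0.45 in WT18 and 0.29 in WT19, higher in 6 of 6. In the Ts65Dn colony it was -0.012 in TS11, 0.63 in TS113, -0.021 in TS125, -0.83 in TS137, 0.51 in TS18 and -0.38 in TS42, higher in 2 of 6.

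**Figure D2:**
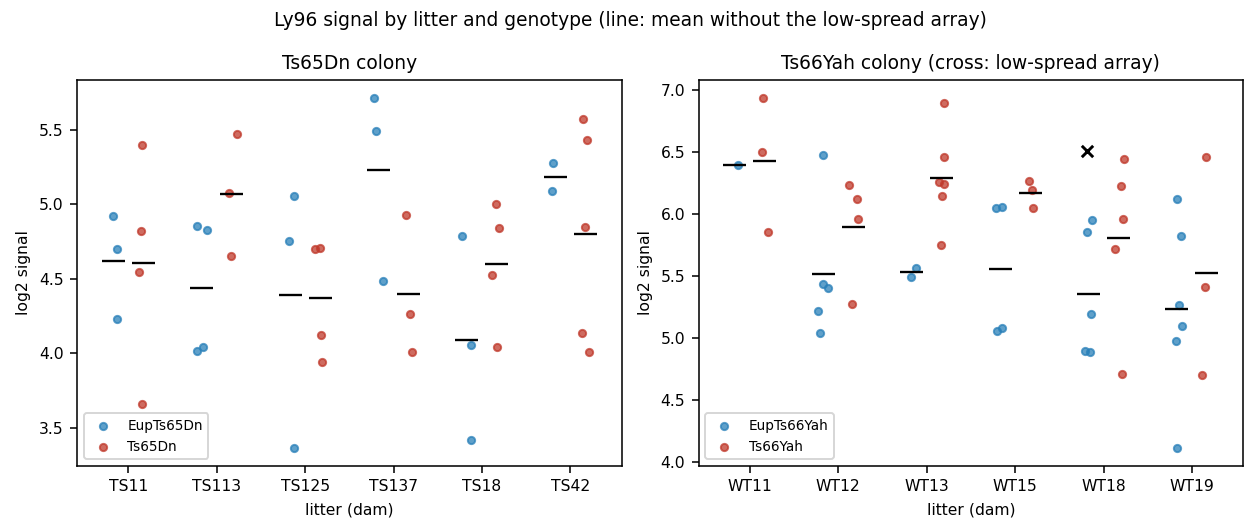
Log2 signal of Ly96 in each embryo by litter, euploid in blue and trisomic in red, in the Ts65Dn colony (left) and the Ts66Yah colony (right); horizontal lines are means without the low-spread array, which is drawn as a cross. The trisomic mean is the higher one in 6 of 6 Ts66Yah litters and in 2 of 6 Ts65Dn litters.

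The other Toll-like receptor genes were not called. Tlr4, the signalling receptor, ran from 2.39 over a median of 3.21 to 4.58 in EupTs65Dn and from 2.37 over 3.22 to 4.28 in Ts65Dn, and from 3.97 over 4.84 to 5.89 in EupTs66Yah without the low-spread array and from 3.15 over 4.75 to 5.84 in Ts66Yah. Its differences were -0.20 in Ts65Dn and -0.030 in Ts66Yah without the low-spread array. Cd14, which hands lipopolysaccharide to the complex, differed by -0.21 and -0.11, and Tlr2, a receptor for bacterial lipoproteins, by 0.093 and -0.12. With the low-spread array the Ts66Yah differences were -0.11 for Tlr4, -0.16 for Cd14 and -0.051 for Tlr2. The groups overlapped for each of these 3 genes.

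**Figure D3:**
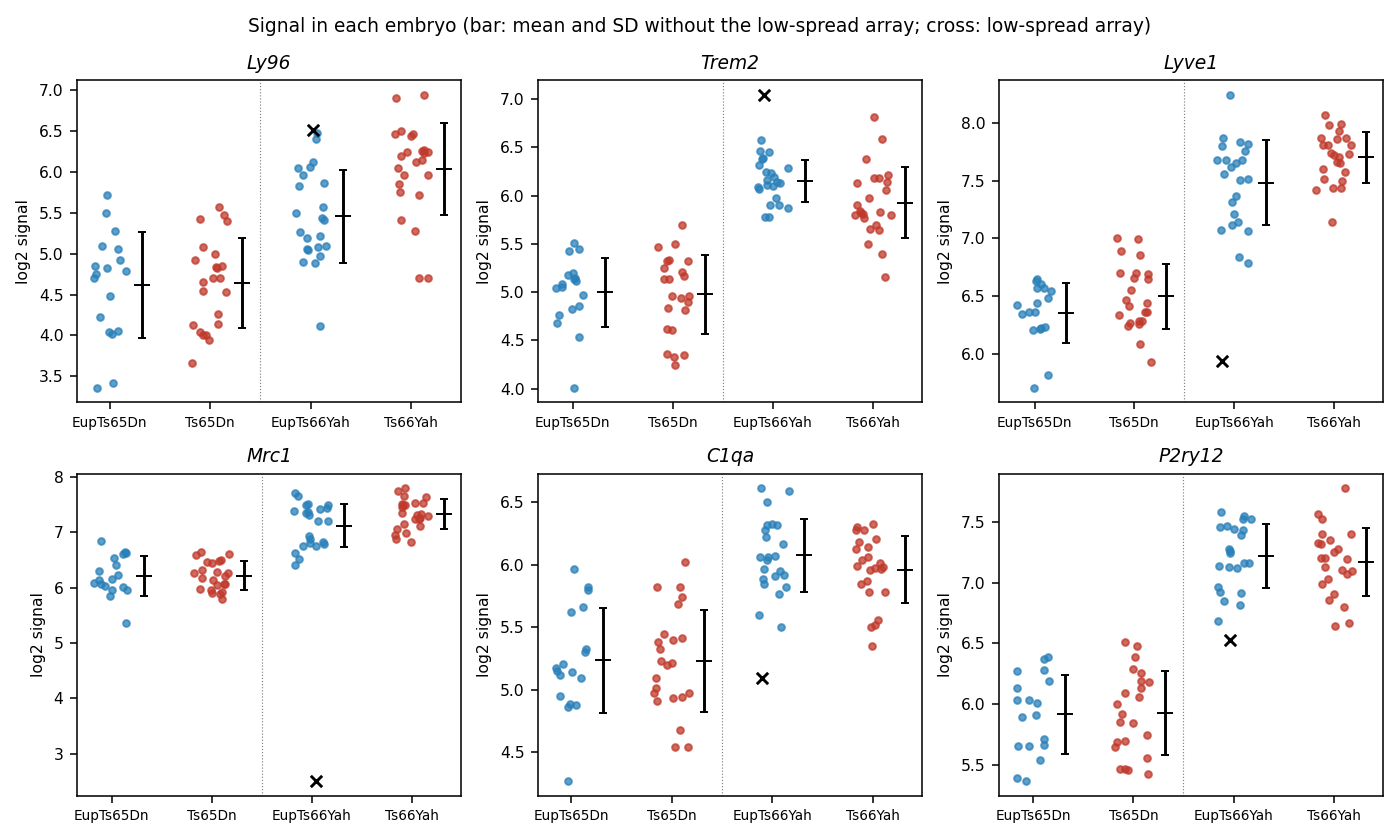
Log2 signal of each embryo for Ly96, Trem2, Lyve1, Mrc1, C1qa and P2ry12, by group; bars are the mean and standard deviation without the low-spread array, which is drawn as a cross, and a dotted line parts the colonies, whose levels are not comparable. For Ly96 21 of 24 Ts66Yah embryos lie above the EupTs66Yah median, and the groups of a colony overlap in all 6 panels.

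The markers of border-associated macrophages had higher means in Ts66Yah, and none of the 5 passed. Without the low-spread array 5 of 5 means were higher, with a median of 0.11. The count was 5 of 5 after quantile normalization (median 0.068), 4 of 5 after centring (0.068), and 4 of 5 with the low-spread array (0.10). For a further list of 13 border macrophage genes, the mean over the list had a median of 4.40 in EupTs66Yah without the low-spread array. In Ts66Yah this median was 4.45, and the ranges overlapped (4.13 to 4.66 and 4.12 to 4.99, euploid first). Lyve1, the hyaluronan receptor of perivascular and meningeal macrophages, ran from 6.79 over a median of 7.55 to 8.24 in EupTs66Yah without the low-spread array and from 7.14 over 7.73 to 8.06 in Ts66Yah. The Ts66Yah embryos filled the upper and middle part of the euploid range, with 18 of 24 above its median. The difference was 0.22 (SE 0.086, 95% interval 0.044 to 0.39, adjusted p = 0.290), higher in 5 of 6 litters. Without litter WT11, which has 4 embryos, it was 0.30 with an adjusted p of 0.0685 and was called; without litter WT18 it was 0.12 (adjusted p = 0.728).

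Mrc1, the mannose receptor, ran from 6.40 over a median of 7.20 to 7.70 in EupTs66Yah without the low-spread array and from 6.83 over 7.32 to 7.79 in Ts66Yah, with 17 of 24 above the euploid median. The low-spread array read 2.51 for Mrc1, far below the rest, and with it the euploid standard deviation was 1.01 in place of 0.39. The difference was 0.20 without that array (SE 0.095, 95% interval 0.013 to 0.40, adjusted p = 0.382) and 0.40 with it (SE 0.21, adjusted p = 0.496), neither of which passed. Pf4, a chemokine shared by these macrophages and megakaryocytes, ran from 6.28 over 6.75 to 7.07 in EupTs66Yah without the low-spread array and from 6.26 over 6.73 to 7.34 in Ts66Yah, a difference of 0.067 (SE 0.079, adjusted p = 0.775), or 0.10 with it. F13a1, the A subunit of coagulation factor XIII, and Ms4a7, a tetraspanin-like surface protein, differed by 0.11 and 0.023, and with the low-spread array by 0.057 and -0.047.

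In the Ts65Dn colony none of these markers passed, and Mrc1 and Pf4 lay level. Mrc1 ran from 5.36 over a median of 6.14 to 6.84 in EupTs65Dn and from 5.79 over 6.21 to 6.64 in Ts65Dn, a difference of 0.0068 (SE 0.095, adjusted p = 0.999). Lyve1 ran from 5.71 over 6.40 to 6.65 and from 5.93 over 6.44 to 7.01, a difference of 0.14 (SE 0.086, adjusted p = 0.919), and Pf4 ran from 5.24 over 5.71 to 6.16 and from 4.72 over 5.77 to 6.31, a difference of 0.026 (adjusted p = 0.998). The median over the 5 markers was 0.0073 in Ts65Dn. For Lyve1 the Ts65Dn effect minus the Ts66Yah effect was -0.075 without the low-spread array (limma, adjusted p = 0.937). A difference between the models was thus not shown for it.

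Most marker genes of the tissue in which border macrophages sit had higher means in Ts66Yah. For other brain cell lists the median list mean was slightly higher too. Without the low-spread array the median list mean was 7.27 in EupTs66Yah and 7.40 in Ts66Yah for astrocyte and oligodendrocyte lineage markers. It was 10.21 and 10.28 for forebrain neuron and progenitor markers and 7.82 and 7.85 for choroid plexus markers. For blood cells it was slightly lower: 5.43 and 5.30 (erythroid), 3.94 and 3.91 (T, B and NK), 4.34 and 4.29 (neutrophil to dendritic). The ranges overlapped for each of these lists. They ran from 7.22 to 8.13 and from 7.09 to 8.23 for choroid plexus, and from 4.95 to 5.93 and from 4.83 to 6.17 for erythroid markers, euploid first. These differences between list means were not tested. Of 11 measured markers of pericytes and meningeal fibroblasts, 11 were higher without the low-spread array, with a median difference of 0.12 (0.077 after quantile normalization and 0.076 after centring, 11 of 11 each time), and 0 passed; with that array 11 of 11 were higher (median 0.16). Their mean over the list ran from 7.24 over a median of 7.69 to 8.07 in EupTs66Yah and from 7.60 over 7.80 to 8.09 in Ts66Yah. Of 10 endothelial markers 8 were higher and 0 passed, with a median difference of 0.12 (0.083 after quantile normalization and 0.075 after centring, 8 of 10 each time) and list means from 6.99 over 7.36 to 7.58 and from 7.20 over 7.43 to 7.64; with that array 10 of 10 were higher (median 0.17). The endothelial gene with the smallest p, the tight junction gene Cldn5, was lower without that array, at -0.13 (95% interval -0.23 to -0.028, adjusted p = 0.280). In Ts65Dn the pericyte and meningeal list was higher for 8 of 11 (median 0.062) and the endothelial one for 5 of 10 (0.0023). The part of these tissues in the values of Lyve1, Mrc1 and Ly96 was not tested.

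The remaining members are made by activated microglia. Ccl4, a chemokine for monocytes and T cells, ran from 2.89 over a median of 3.34 to 3.66 in EupTs65Dn and from 2.95 over 3.46 to 4.25 in Ts65Dn, with 17 of 23 above the euploid median and a difference of 0.14 (SE 0.080, 95% interval -0.024 to 0.30, adjusted p = 0.908). Several Ts65Dn embryos thus lay above the euploid range, but most did not. In Ts66Yah Ccl4 differed by -0.039 without the low-spread array. Its neighbour Ccl3 differed by -0.23 (adjusted p = 0.935) in Ts65Dn and 0.022 in Ts66Yah, and Gpnmb, a glycoprotein of lipid-laden macrophages, by 0.22 and 0.087. With the low-spread array the Ts66Yah differences were -0.089 for Ccl4, 0.0033 for Ccl3 and 0.028 for Gpnmb. None of these was called.

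The difference between the models, Ts65Dn effect minus Ts66Yah effect, was tested in 1 fit of all 4 groups. With all arrays 0 of 34 members were called in limma (0.00901% of all probe sets), and 3 lay under an unadjusted p of 0.05; without the low-spread array 0 of 34 were called (0.149% of all probe sets), and 1 lay under 0.05. No other tool was run on this difference. Ly96 had the smallest p both times, at -0.56 without the low-spread array (SE 0.24, 95% interval -1.04 to -0.069, unadjusted p = 0.0257, adjusted p = 0.641) and -0.51 with it (adjusted p = 0.707). A difference between Ts65Dn and Ts66Yah was therefore not shown for Ly96, although it was called in one and not in the other. The next were Gpr34 (0.31, adjusted p = 0.718), Spi1 (-0.35, adjusted p = 0.722) and Laptm5 (-0.20, adjusted p = 0.776), all without that array. The median over the members was -0.054, beside -0.0060 over all probe sets.

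Litter means of single members lay up to 1.14 apart on the log2 scale, but no member passed the litter test. In an F test over the 6 litters at equal genotype (limma, adjusted over all probe sets), 0 of 34 members were called in the Ts65Dn colony, where 0.378% of all probe sets were called, and 0 of 34 in the Ts66Yah colony without the low-spread array, where 0.0901% were called. At an unadjusted p under 0.05 the counts were 4 of 34 (11.8%, beside 2382 probe sets or 10.7%) and 6 of 34 (17.6%, beside 2555 or 11.5%). No other tool was run for litters. In the Ts65Dn colony the smallest p-values were those of Mrc1 (adjusted p = 0.292), Tyrobp (0.326), Csf1r (0.360) and Aif1 (0.411). Mean deviations of Aif1 from the genotype mean ran from -0.57 in TS113 to 0.57 in TS137, and those of Csf1r from -0.18 in TS137 to 0.17 in TS113, so the litter that was high for one microglia marker was low for the other.

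In the Ts66Yah colony Fcgr3 varied most between litters, with an adjusted p of 0.112 and mean deviations from -0.46 in WT15 to 0.49 in WT11, a range of 0.95. Embryos of WT15 read low and those of WT11, of which there are 4, read high. It was followed by Ptprc and Mrc1 (adjusted p = 0.239 each), Pf4 (0.257), Tyrobp (0.392) and Gpr34 (0.410). For Gpr34 and Tyrobp, too, WT11 was the highest litter (0.41 and 0.32) and WT15 the lowest (-0.33 and -0.29). Mrc1 and Ptprc had their highest mean in WT13 and their lowest in WT19. Fcgr3 passed the litter test under 4 other settings, named with the processing choices.

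**Figure D4:**
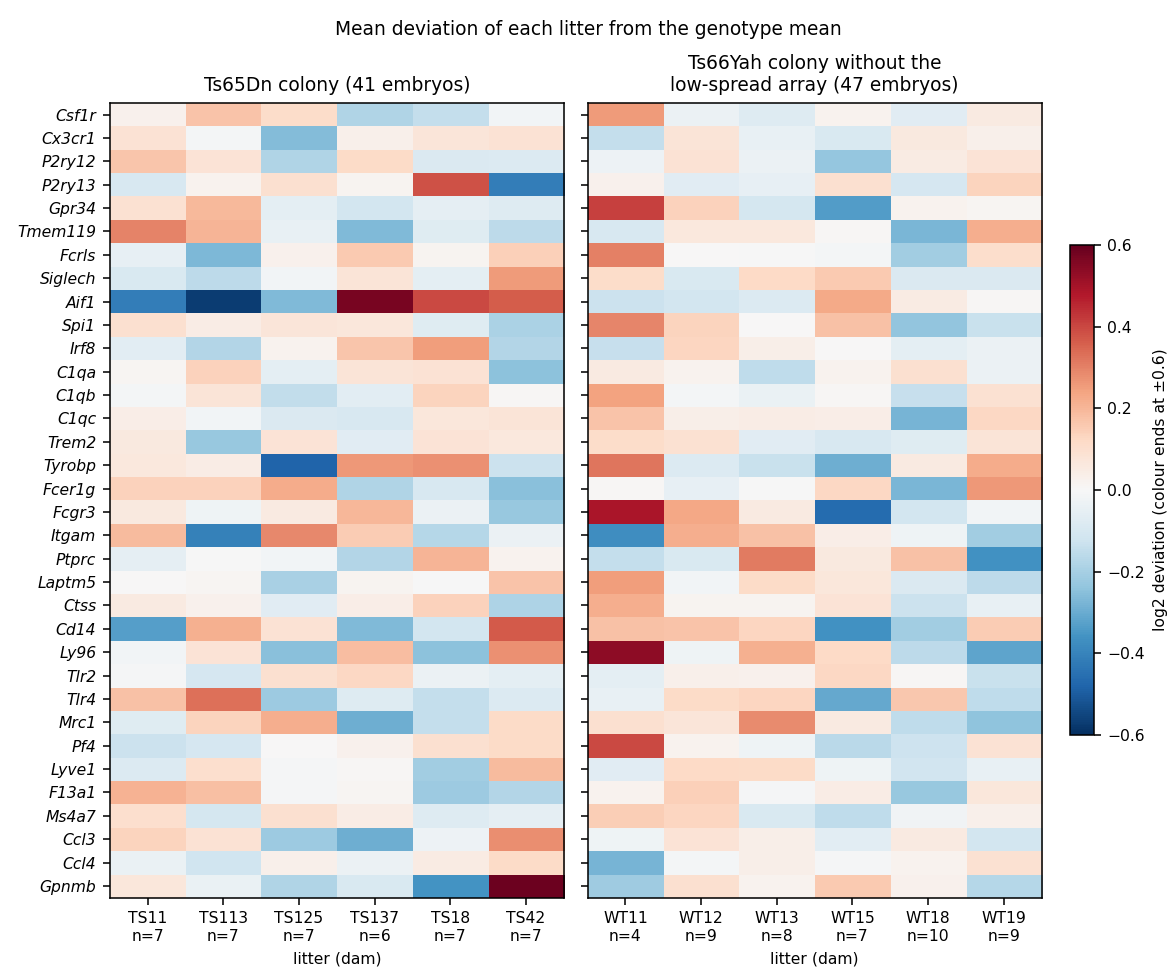
Mean deviation from the genotype mean (log2) of each member in each of the 6 litters, with the Ts65Dn colony on the left and the Ts66Yah colony without the low-spread array on the right. Litters WT11 and WT15 stand at opposite ends for Fcgr3, at 0.49 and -0.46, and TS137 and TS113 do so for Aif1, at 0.57 and -0.57.

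The members did not vary together between embryos as 1 block. After subtracting the genotype mean, the mean of Pearson's r over all 561 pairs of members was 0.00015 in the Ts65Dn colony, beside 0.0012 over all probe sets, with single pairs from -0.51 to 0.59. In the Ts66Yah colony without the low-spread array it was 0.038, beside 0.0038, with pairs from -0.39 to 0.55; these pairs share arrays and litters and are given as a description. Of 13 pairs of partner genes, such as chains of 1 complex or a receptor and its adaptor, each colony was tested by permutation with 100000 resamples, 26 relations in all, and 2 passed after Benjamini-Hochberg adjustment. Neither pair passed in both colonies.

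C1qa and C1qb varied together in the Ts65Dn colony over 41 embryos, with r = 0.588 (permutation p = 9e-05, adjusted p = 0.00117) and rho = 0.544 (permutation p = 0.00031, adjusted p = 0.00806). It was 0.593 without the 2 embryos farthest from the median of C1qa and 0.617 after the litter means were also removed. In the Ts66Yah colony without the low-spread array the same pair gave r = 0.276 (permutation p = 0.0593, adjusted p = 0.193). With that array it was 0.509, and then 0.222 without the 2 embryos farthest from the median of C1qa. C1qc, the other chain of the complex, did not follow them in the Ts65Dn colony, at r = 0.062 with C1qa and -0.0039 with C1qb.

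Mrc1 and Lyve1, both markers of border macrophages, varied together in the Ts66Yah colony over 47 embryos, with r = 0.551 (permutation p = 4e-05, adjusted p = 0.00104) and rho = 0.472 (permutation p = 0.0009, adjusted p = 0.0117). The value was 0.436 without the 2 embryos farthest from the median of Mrc1, 0.537 after removing litter means, and 0.734 with the low-spread array. In the Ts65Dn colony it was 0.236 (adjusted p = 0.312). Trem2 and Tyrobp gave -0.085 and 0.325 (adjusted p = 0.137 for the second), and Tlr4 and Ly96 gave 0.142 and -0.097, first colony first. For Mrc1 and F13a1 the single low-spread array turned the sign, from 0.296 without it to -0.340 with it.

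**Figure D5:**
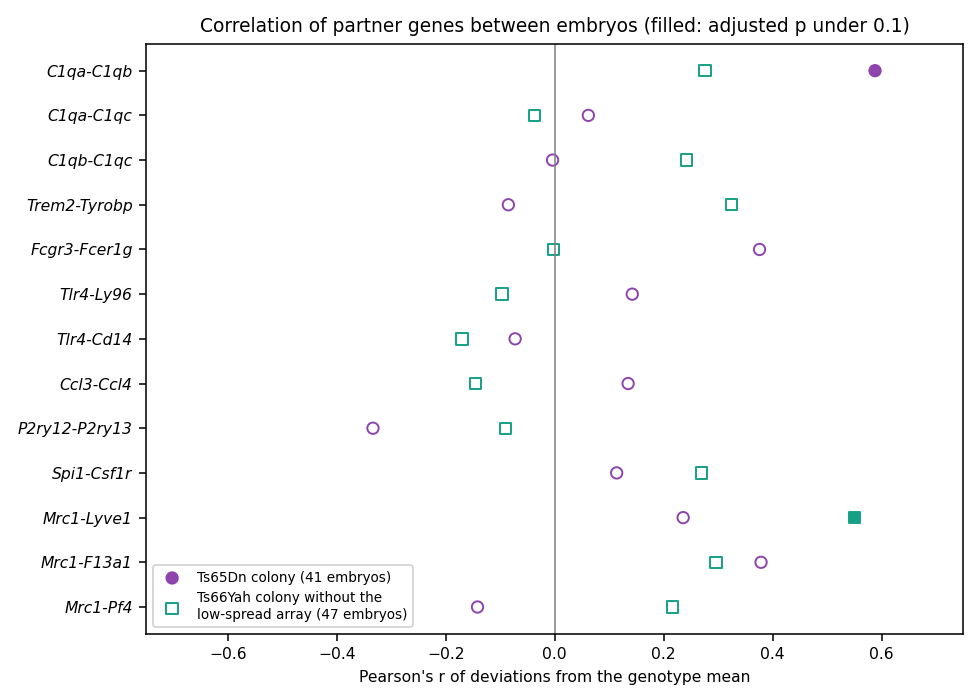
Pearson's r between partner genes over embryos, after subtracting the genotype mean, for 41 embryos of the Ts65Dn colony (circles) and 47 of the Ts66Yah colony without the low-spread array (squares). The filled points, C1qa with C1qb in the Ts65Dn colony at 0.588 and Mrc1 with Lyve1 in the Ts66Yah colony at 0.551, are the relations with an adjusted p under 0.1.

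Genes around the members, from lists of ligands, regulators and related pathways, gave few calls. A list of microglia ligands and growth factors took in Csf1r ligands and transforming growth factor beta, but also Apoe, Entpd1 and Entpd2. Its means were higher for 8 of 8 genes in Ts66Yah without the low-spread array (median 0.11) and 5 of 8 in Ts65Dn, with 0 called. Within this list Tgfb1 had the smallest p in Ts66Yah, at 0.30 (adjusted p = 0.149). In Ts66Yah without the low-spread array 24 of 33 other microglia and macrophage genes (median 0.078), 14 of 19 Toll-like receptor and inflammasome genes (median 0.13) and 7 of 13 genes of ITAM and Fc receptor signalling had higher means, with 0 called in each. The gene with the smallest p was lower in the first of these lists, Itgb5, an integrin chain, at -0.21 (adjusted p = 0.117), and in the next, the cytokine gene Il1b, at -0.30 (adjusted p = 0.226), and higher in the last, Cd300a, an inhibitory receptor, at 0.25 (adjusted p = 0.224). Of 14 lysosomal and disease-associated microglia genes 10 were higher and 1 passed: Lyz2, the lysozyme of macrophages, rose by 0.43 (SE 0.12, adjusted p = 0.0933), a call that 14 of 21 other settings ended, with adjusted p-values up to 0.342, and that was not made with the low-spread array (0.42, adjusted p = 0.228). Markers of T, B and NK cells were higher for 4 of 11 genes (median -0.044) and those of neutrophils, monocytes, mast and dendritic cells for 6 of 15 (median -0.082). All these counts of direction are for the values as deposited, and the share of all probe sets with a higher mean is not given beside them. For the members, the count of higher means in Ts66Yah moved with the scaling of the arrays. No lean of these lists is therefore read from their counts.

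The immune genes that lie on the triplicated part of Mmu16 itself are not among the members, and most of them rose. In Ts65Dn 4 of 5 passed: Ifnar1 (0.41, adjusted p = 2.17e-07) and Ifnar2 (0.58, adjusted p = 1.25e-09), the chains of the receptor for type I interferons, Ifngr2 (0.52, adjusted p = 2.55e-10), a chain of the receptor for interferon gamma, and Il10rb (0.43, adjusted p = 0.0139), a chain of several cytokine receptors. The Il10rb call was lost without litter TS11 (adjusted p = 0.336) or TS137 (0.186), and without the arrays of doubtful sex label (0.210). In Ts66Yah without the low-spread array the same 4 rose, by 0.41, 0.50, 0.44 and 0.63 in that order; with the low-spread array Ifnar2 differed by 0.71 and was not called (adjusted p = 0.238). Runx1, a blood cell transcription factor that is also in the list, did not pass, at 0.13 (adjusted p = 0.981) and 0.39 (adjusted p = 0.236). Of the lists of myeloid genes near the members in Ts65Dn, the smallest p-values were those of Hexa at 0.20 (adjusted p = 0.163), a lysosomal hexosaminidase chain, and Siglec1 at 0.46 (adjusted p = 0.192), a sialic acid receptor of border macrophages; 0 of these lists held a call.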

How the data were processed

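The deposited values are log2 signals per probe set, which the authors made with RMA per the submitters' processing notes; its version and settings are not given in the labels or headers. They were used as deposited, with 1 array per embryo and separate embryos as replicates. Gene names came from the platform annotation table, promoter sequences from RefSeq (GRCm38.p6). Of the probe sets, 19572 carried 1 symbol and 2634 were taken as unnamed here, which would take in any with several symbols. Groups, litters and sex came from the labels; the series text counts 25 Ts66Yah arrays and the labels 24.

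Genotypes, their difference and litters were tested with limma 3.58.1 in R 4.3.3 (lmFit and eBayes, two-sided for genotype), calling an adjusted p under 0.1 after Benjamini-Hochberg adjustment across the 22206 probe sets. The script was tested on simulated data. Correlations used Python 3.11.15 and numpy 2.4.6, and figures matplotlib 3.10.9. The members and lists were chosen with earlier results of these data known. Named are members past the threshold, the 4 with the smallest p in each genotype comparison, 14 fixed microglia and macrophage genes, up to 6 per litter test, and of other lists a part of the genes with the smallest p; other members were named after their values were seen. Alternatives were the litter as a block, sex, a threshold of 0.05, the t-test and the marginal criterion of the series (p under 0.01 and a ratio under 0.8 or over 1.2), filters on dim probe sets, other scalings, array weights, array spread, a trended and robust prior, and leaving out litters or arrays. Leaving out arrays with Y-linked genes at odds with their sex label, the block together with array spread, and correlations with the low-spread array were added after seeing the data. The number of arrays limits precision.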

Additional observations from a re-analysis of the deposited data

How the results depend on the processing

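No paired analysis was possible because replicate numbers were given in accession order and pair nothing; the litter, which both genotypes share, was used as a block instead. In Ts65Dn the count of called members was 0 under every alternative run. In Ts66Yah with all arrays it was 1, Ly96, under the marginal criterion and with array spread as a covariate, and 0 under the others. In Ts66Yah without the low-spread array the count of 1 became 0 with the litter block, the t-test, the threshold of 0.05, the filter at the median (which leaves 12 members and not Ly96), centring on the array median, quantile normalization, array weights, array spread as a covariate, without the narrower arrays, without arrays at odds with their sex label, and with the litter block and array spread together. Leaving out each litter in turn gave 0 to 2, the 2 being Ly96 and Lyve1 without WT11. For litter differences in the Ts66Yah colony the count of 0 became 1, Fcgr3 each time, with the filter at the median, centring, array spread, and without arrays at odds with their sex label. No called value changed sign. Over all probe sets the 207 calls without the low-spread array became 103 at 0.05, 91 with array spread, 91 with the block and spread, 76 without the narrower arrays, and 71 to 306 without single litters; the 38 with all arrays became 472 by the marginal criterion and 279 with array spread, and the 109 in Ts65Dn became 246 by the marginal criterion. Apart from the filter and the stricter threshold, the cause of these shifts was not tested.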

Other observations

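The low-spread array was the highest of the 24 EupTs66Yah arrays for 11 of the 34 microglia and immune genes and the lowest for 11 (32.4% each), beside 35.6% and 43.2% of all probe sets. Among others it was lowest for Mrc1, Lyve1, Pf4, P2ry12, Ctss and the 3 C1q chains, and highest for Csf1r, Trem2, Ly96, Tlr4, F13a1 and Ms4a7. Both shares of the members lay below those of all probe sets, so such extreme places were not particular to these genes.

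The median standard deviation over the 34 members was 0.41 in EupTs65Dn, 0.40 in Ts65Dn, 0.38 in EupTs66Yah without the low-spread array and 0.36 in Ts66Yah, beside 0.31, 0.32, 0.33 and 0.29 over all probe sets. Aif1 had the widest spread of the members in Ts65Dn, Ts66Yah and EupTs66Yah without the low-spread array, and Gpnmb in EupTs65Dn.

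Outside the members, Mbp, the myelin basic protein of oligodendrocytes, rose by 0.62 in Ts66Yah without the low-spread array (adjusted p = 0.0503 in limma), a call that 8 of 22 other settings ended, with adjusted p-values up to 0.398.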
